A study of Sus scrofa with 3 samples.

Results

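In longissimus dorsi muscle of young pigs, 757 expressed transcripts were listed at 0 in both the EZH2 precipitate and the IgG precipitate. These transcripts were selected on the measured values themselves. A member had to be a different transcript on 2 identical rows of the deposited tables, lie on chromosomes 1 to 18, and have an FPKM value (mapped fragments per length of transcript and per size of library) above 1 in total RNA and of 0 in both precipitates. The 757 members were 51.4% of the 1473 autosomal transcripts on 2 rows with a total-RNA value above 1, which are called expressed transcripts here. The same pair of 0 values was listed for 55.2% of the 10251 autosomal transcripts on 2 rows at any level, and for 55.7% of all 14580 transcripts. As the 0 values chose the members, these shares describe the selection. What a repeated row stands for is not given in the sources used here. Among the EZH2-binding lincRNAs that the study lists, which include no member, those on repeated rows had no assigned strand and those on an unrepeated row had one, whereas the strand of the members was not used here.

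Large White female pigs, 1 month old and with no treatment named, were the source of all 3 libraries. The study's results and its lincRNAseq methods name a single pig, whereas its RIP-Seq methods use the plural. The study describes RIP-Seq and lincRNAseq as made from the same muscle sample. For RIP-Seq, frozen muscle was lysed and incubated with an EZH2 antibody or with IgG as the control, with no crosslinking step described, and the RNA on the beads was sequenced. For lincRNAseq, total RNA without ribosomal RNA was sequenced. Values in the libraries are called EZH2_FPKM, IgG_FPKM and lincRNA_FPKM. There was 1 library per condition, so the spread between animals is unknown and no test was made. Marker genes of the tissue were not analysed here.

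EZH2 carries the methyltransferase activity of the Polycomb repressive complex PRC2, which marks histone H3 at silenced genes and holds back differentiation genes in muscle progenitors. RNA immunoprecipitation recovers RNA that stays with a protein through lysis and washing, and an IgG precipitate shows what comes down without that protein as the target. Long intergenic non-coding RNAs are transcripts between genes that encode no protein, and several of them act in muscle formation, some through chromatin complexes. The study filtered its lincRNAs by estimated coding potential. Coding potential was not used here, so neither the members nor the transcripts compared with them are shown to be non-coding.

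The depth of the precipitates set how far a value of 0 could be read. EZH2_FPKM was above 0 for 6226 of the 14580 transcripts (42.7%), IgG_FPKM for 1043 (7.15%) and lincRNA_FPKM for 12466 (85.5%). Among 815 transcripts above 0 in both precipitates, the most common ratio of IgG_FPKM to EZH2_FPKM was 5.05, which 79 transcripts had within 1%. Further ratios lay within 1% of this value divided by 2 (57 transcripts), by 3 (39), by 4 (34) and by 5 (24), the spacing that whole fragments give when 1 fragment adds 5.05 times the FPKM in IgG that it adds in EZH2. A 0 in IgG thus set a looser limit on the level of a member than a 0 in EZH2. Transcript lengths were not used here, so the fragments that a member could have had and still be missed are unknown. A value of exactly 0 can also be a failed estimate, and the members are therefore described as listed at 0.

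Every expressed transcript fell into 1 of 4 combinations of precipitate values. Beside the 757 members, 582 (39.5%) were above 0 in EZH2 alone, 112 (7.60%) in both precipitates, and 22 (1.49%) in IgG alone. Listing at 0 in EZH2 nearly coincided with listing at 0 in both, because only 22 of the 779 transcripts at 0 in EZH2 had an IgG value. The comparison group, with EZH2_FPKM above 0 at any IgG value, held 694 transcripts (47.1%), of which 16.1% were above 0 in IgG (95% Wilson interval 13.6 to 19.1). This and all later intervals cover counting error over transcripts only, and neighbouring transcripts may be pieces of 1 locus.

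Members were spread over the same range of total-RNA levels as the comparison group, apart from its extreme top. Their median lincRNA_FPKM was 2.31 (95% interval 2.12 to 2.52), with quartiles of 1.38 and 5.68. In the comparison group the median was 2.45 (2.26 to 2.76), with quartiles of 1.42 and 6.75. As log2(lincRNA_FPKM + 2), the medians were 2.11 and 2.16, a difference of -0.047 for members minus comparison group. The intervals of the medians overlapped, so no shift in level was resolved over all identifiers in either direction. In bulk tissue, fewer cells of a type and less RNA per cell cannot be told apart. The sign of this small difference was not stable: with the lincRNA_FPKM minimum raised to 5, it was 0.28. In the second stretch of identifiers, defined below, it was -0.22, and the intervals of the medians did not overlap. In the third it was 0.084, with overlapping intervals.

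The limit of 1 fell where transcripts were dense. The lowest members were TCONS_00030596 on chromosome 17 at a lincRNA_FPKM of 1.00228 and TCONS_00026597 on chromosome 15 at 1.00266. Just outside, and also at 0 in both precipitates, were TCONS_00038896 on chromosome 2 at 0.999296 and TCONS_00017420 on chromosome 13 at 0.999064. Of the 757 members, 331 lay at or below 2, and 10% lay at or below 1.15.

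The upper part of the distribution was also shared. A lincRNA_FPKM above 10 was found for 135 members (17.8%) and 120 comparison transcripts (17.3%), and a value above 100 for 24 members (3.17%) and 24 comparison transcripts (3.46%). The 95th percentile was 48.5 for members and 51.1 for the comparison group. Counted over all identifiers, high abundance in total RNA did not set the groups apart by number. Above 10 this did not hold within the stretches of identifiers, where the shares differed in opposite directions (14.6% of members and 21.5% of comparison transcripts in the second, 19.7% and 13.1% in the third). They parted at the very top, where the highest member reached 880.2 and the highest comparison transcript 19355.7.

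**Figure D1:**
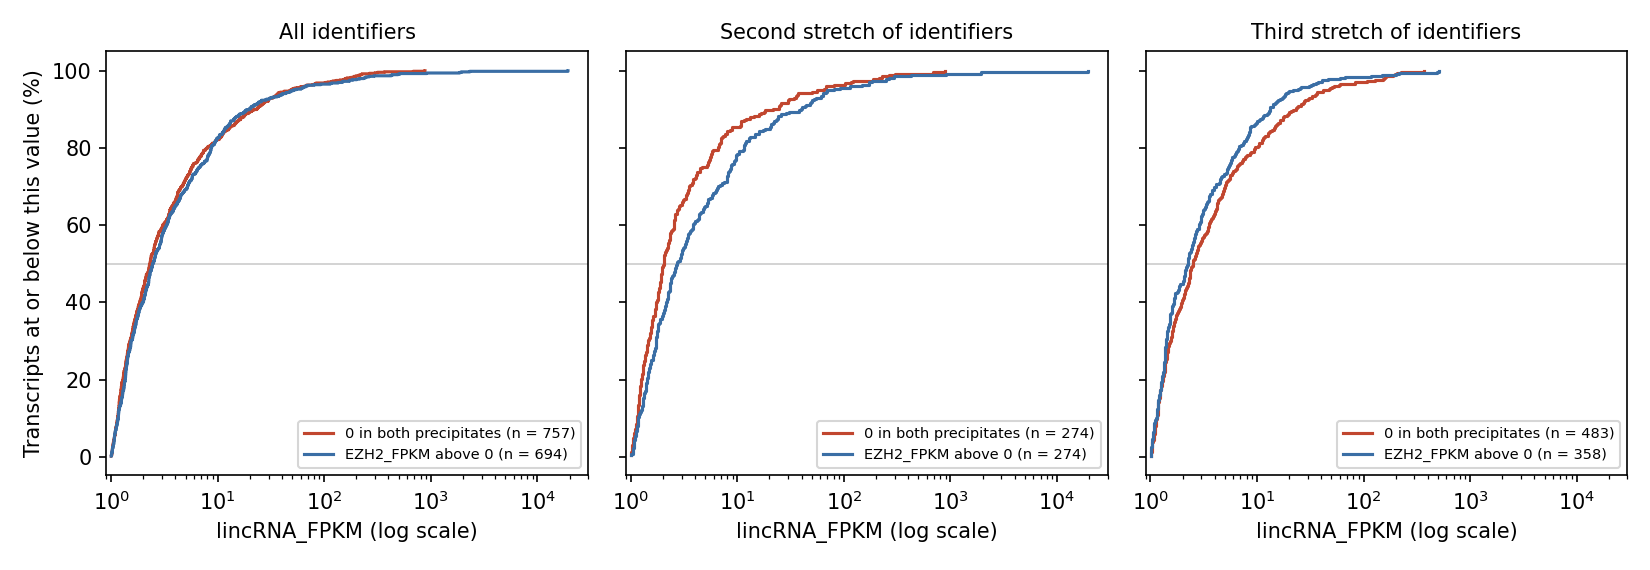
Cumulative share of transcripts (percent, vertical axis) at or below each lincRNA_FPKM value (log scale, horizontal axis) for members (red) and expressed transcripts with EZH2_FPKM above 0 (blue), in all identifiers, and in the second stretch and the third stretch (successive groups of consecutive identifiers on each chromosome). The curves run close together over all identifiers, while the red curve lies to the left in the second stretch (median 2.05 against 2.71) and for most of its course to the right in the third (2.50 against 2.24).

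The sum of lincRNA_FPKM was less concentrated among the members. It was 10379.9 over the 757 members and 35278.9 over the 694 comparison transcripts, or 22.5% and 76.4% of the sum over all expressed transcripts. A single comparison transcript, TCONS_00008691 on chromosome 10, held 41.9% of that sum, and without it the members held 38.7%. The 10 highest members held 35.5% of the members' sum, and 19 members held 50% of it. In the comparison group the 10 highest held 80.9%, or 59.3% without TCONS_00008691.

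The most abundant member was TCONS_00036994 on chromosome 2, with a lincRNA_FPKM of 880.2 and 0 in both precipitates. It ranked 6 among the 1473 expressed transcripts, behind 5 transcripts that all had an EZH2 value. The next member was TCONS_00042007 on chromosome 3 at 683.6. After a wide gap came TCONS_00051115 on chromosome 5 at 366.6 and TCONS_00047904 on chromosome 4 at 315.8. The members in places 5 and 6 were TCONS_00010255 on chromosome 11 at 298.2 and TCONS_00013319 on chromosome 12 at 265.1. The last 4 of the leading 10 lay close together between 208.1 and 225.4: TCONS_00032446 on chromosome 18, TCONS_00043560 on chromosome 3, TCONS_00067256 on chromosome 9 and TCONS_00009191 on chromosome 10. The 10 thus came from 9 chromosomes, and no chromosome gave more than 2 of them. Gene names, coordinates and sequences of these transcripts were not used here, and each is known by its assembly identifier only.

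Of the 10 highest expressed transcripts 2 were members, of the 20 highest 6, and of the 50 highest 24. These 50 were all the transcripts above 100. Of the other 26, 24 were above 0 in EZH2 and 2 in IgG alone. Members were thus missing from the first 5 ranks and made up nearly the same share as the comparison group above 100.

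**Figure D2:**
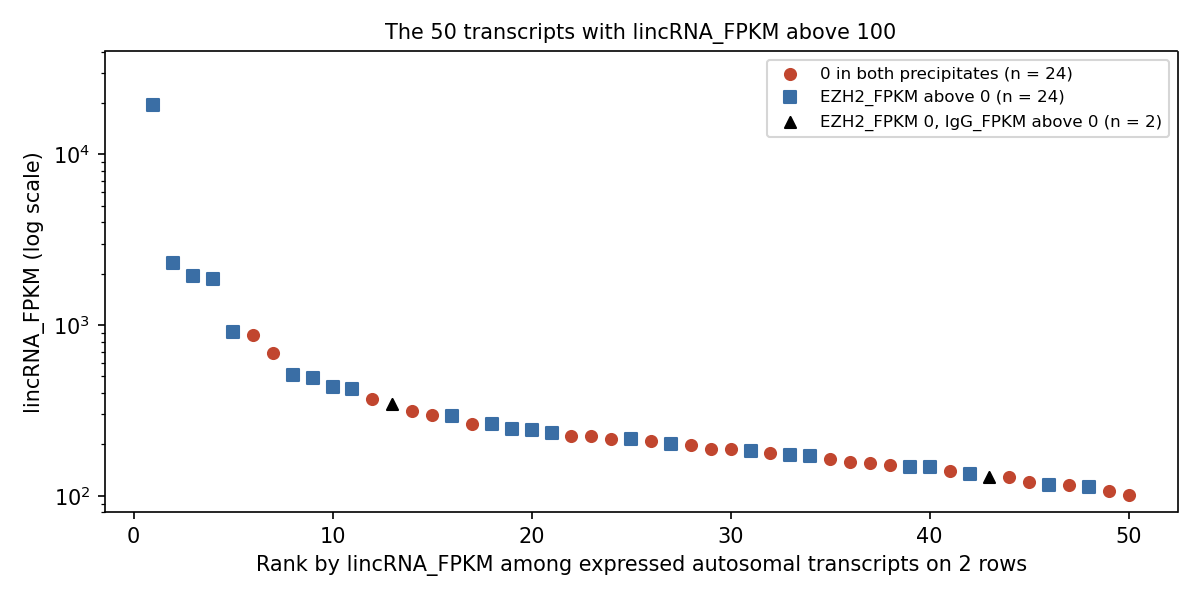
The 50 expressed transcripts with lincRNA_FPKM above 100 by rank (horizontal axis) and lincRNA_FPKM (log scale, vertical axis), marked by their values in the precipitates. Ranks 1 to 5 all have EZH2_FPKM above 0, the first member stands at rank 6 with 880.2, and from there on members and comparison transcripts are intermingled.

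The highest comparison transcripts lay beyond the range of the members. TCONS_00008691, at a lincRNA_FPKM of 19355.7, was listed with 173.1 in EZH2 and 0 in IgG. TCONS_00035711 on chromosome 2 had 708.8 in EZH2 and 369.9 in IgG at 2318, and TCONS_00026536 on chromosome 15 had 218.5 in EZH2 and 0 in IgG at 1930.88. All 3 lay above every member in total RNA. For each of the 10 leading members, the comparison transcript of nearest lincRNA_FPKM was then taken, a choice made after the values were seen. For TCONS_00036994 this was TCONS_00055240 on chromosome 6, with a lincRNA_FPKM of 913.7, an EZH2_FPKM of 27.8 and an IgG_FPKM of 0. For TCONS_00042007 it was TCONS_00038420 on chromosome 2, with 511.7 in lincRNAseq, 17.0 in EZH2 and 0 in IgG. Over the 10 members there were 7 different nearest transcripts, with EZH2_FPKM from 17.0 to 3604. The median over the 10 members was 42.2. The top value was that of TCONS_00045380 alone, which had 472.1 in IgG and lay in the first stretch of identifiers, defined below. The next highest was 57.4. As both groups were chosen by their EZH2 values, the contrast in EZH2 within these pairs was fixed by the choice, and the values only show the size of EZH2_FPKM where one was listed.

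Transcripts at 0 in EZH2 but above 0 in IgG were the closest to the members by rule. The 3 highest in total RNA were TCONS_00066839 on chromosome 9 (lincRNA_FPKM 344.9, IgG_FPKM 75.01), TCONS_00010947 on chromosome 11 (129.6 and 23.3) and TCONS_00064114 on chromosome 8 (12.1 and 3.90). The median lincRNA_FPKM of all 22 was 1.81 (1.34 to 4.03), an interval that held the members' median of 2.31. Among the 134 expressed transcripts above 0 in IgG, these 22 were 16.4% (11.1 to 23.6). The other 112 also had an EZH2 value.

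Among expressed transcripts, no trend of the members' share with abundance was resolved. It was 53.2% (331 of 622; 95% Wilson interval 49.3 to 57.1) for lincRNA_FPKM above 1 and up to 2, and 51.0% (214 of 420; 46.2 to 55.7) above 2 and up to 5. It was 44.8% (77 of 172; 37.5 to 52.2) above 5 and up to 10, and 53.1% (111 of 209; 46.3 to 59.8) above 10 and up to 100. Above 100 it was 48.0% (24 of 50; 34.8 to 61.5). The 5 intervals overlapped. Below the limit of 1, where no transcript could be a member, the share at 0 in both precipitates was 54.1% above 0.5 and up to 1 (51.7 to 56.5, n = 1695) and 51.0% above 0.2 and up to 0.5 (49.5 to 52.5, n = 4277). It was 60.1% above 0.1 and up to 0.2 (56.2 to 63.8, n = 634) and 63.4% above 0 and up to 0.1 (58.6 to 67.9, n = 415). Of the 1757 transcripts listed at 0 in lincRNAseq, it was 65.7% (63.4 to 67.9). The share was thus higher at 0.2 or less than in the class above 0.2 and up to 0.5, beyond the intervals. These classes below 1 were not split by stretch of identifiers, defined below. A lincRNA_FPKM of 0 was listed for 42.3% of transcripts on 2 rows in the second stretch and 0.0162% in the third. Level and stretch can therefore not be told apart for the transcripts at 0 in lincRNAseq.

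Where an EZH2 value existed, it was higher among the most abundant transcripts. The median EZH2_FPKM of comparison transcripts was 4.34, 3.58, 4.95 and 7.29 in the first 4 classes and 57.6 above 100, where the lowest value was 5.32. The share of expressed transcripts above 0 in IgG was 7.56% in the lowest class and 24.0% (12 of 50) in the highest. Above 100, the members at 0 in both precipitates and the comparison transcripts with high EZH2 values thus stood in equal number, 24 each, with no EZH2_FPKM between 0 and 5.32. Over all 694 comparison transcripts the quartiles of EZH2_FPKM were 2.08 and 14.7, and 2 values lay below 0.1, the lowest at 0.00121. Taking up to 0.1 in both precipitates as 0 would have given 760 members in place of 757.

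**Figure D3:**
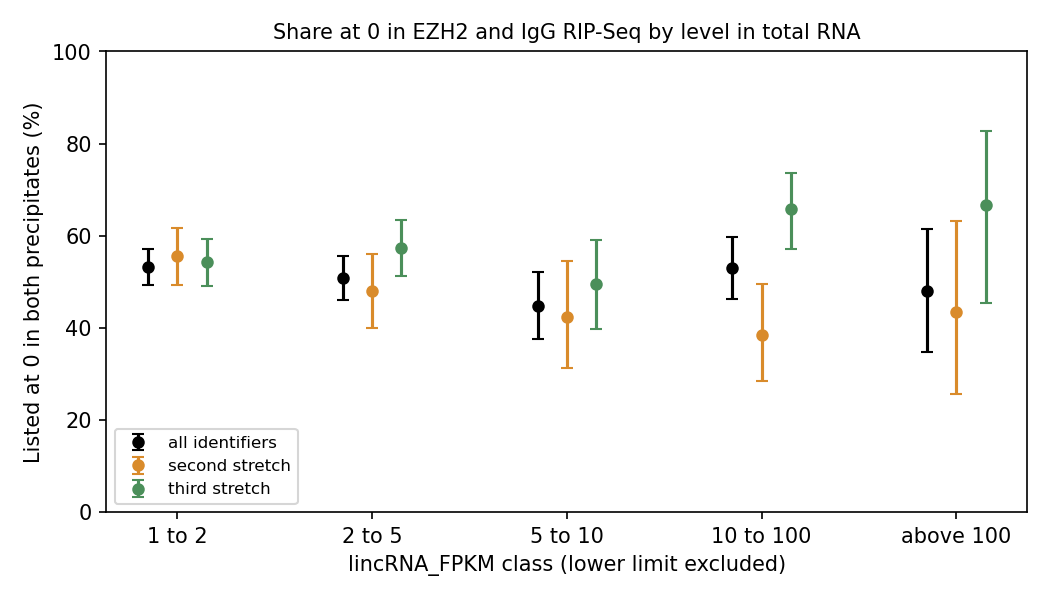
Share of expressed transcripts listed at 0 in both precipitates (percent, vertical axis) by class of lincRNA_FPKM (horizontal axis), with 95% Wilson intervals over transcripts, for all identifiers (black), the second stretch (orange) and the third stretch (green). Over all identifiers the shares lie between 44.8% and 53.2%, whereas in the class from 10 to 100 the second stretch is at 38.5% and the third at 65.9%.

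Members lay on all 18 autosomes. Chromosome 1 held the most, 89 (11.8% of the members), followed by chromosome 13 with 77, and chromosome 17 the fewest, 21. Expressed transcripts numbered 200 on chromosome 1, 152 on chromosome 13 and 37 on chromosome 17, and were fewest on chromosome 18, where 25 of 35 were members. The share of expressed transcripts that were members ran from 44.5% on chromosome 1 (37.8 to 51.4) to 71.4% on chromosome 18 (25 of 35; 54.9 to 83.7). Chromosome 10 came next at 65.2% (45 of 69; 53.4 to 75.4) and then chromosome 11 at 62.0% (31 of 50; 48.2 to 74.1). The intervals of chromosomes 10 and 18 lay above the share of 51.4% over all chromosomes, the other 16 held it, and 0 lay below.

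The high shares of chromosomes 10 and 18 depended on which transcripts were counted. With autosomal transcripts on 1 row included, the share was 58.5% on chromosome 10 (49.5 to 67.0) and 59.7% on chromosome 18 (47.3 to 71.0), and both intervals held the overall 52.7%. With lincRNA_FPKM above 2 it was 60.0% on chromosome 10 (43.6 to 74.4), which held the overall 50.1%, and 78.9% on chromosome 18 (56.7 to 91.5), which did not. With 1 transcript from each run of consecutive identifiers it was 66.1% on chromosome 10 (53.7 to 76.7), above the overall 52.8%, and 65.4% on chromosome 18 (46.2 to 80.6), which held it. Without the first stretch, the earliest identifiers of each chromosome on 2 rows, both intervals stayed above the overall 53.6%, at 66.2% on chromosome 10 (54.3 to 76.3) and 71.4% on chromosome 18 (54.9 to 83.7). At any level in total RNA, 56.3% of transcripts on chromosome 10 and 59.8% on chromosome 18 were at 0 in both precipitates, close to the 55.2% over all autosomes. The interval of each thus lay above the share over all chromosomes under some of these counts, and of neither under all of them. Both chromosomes were picked from 18 intervals, and with that many, some can miss the shared value by counting error alone.

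**Figure D4:**
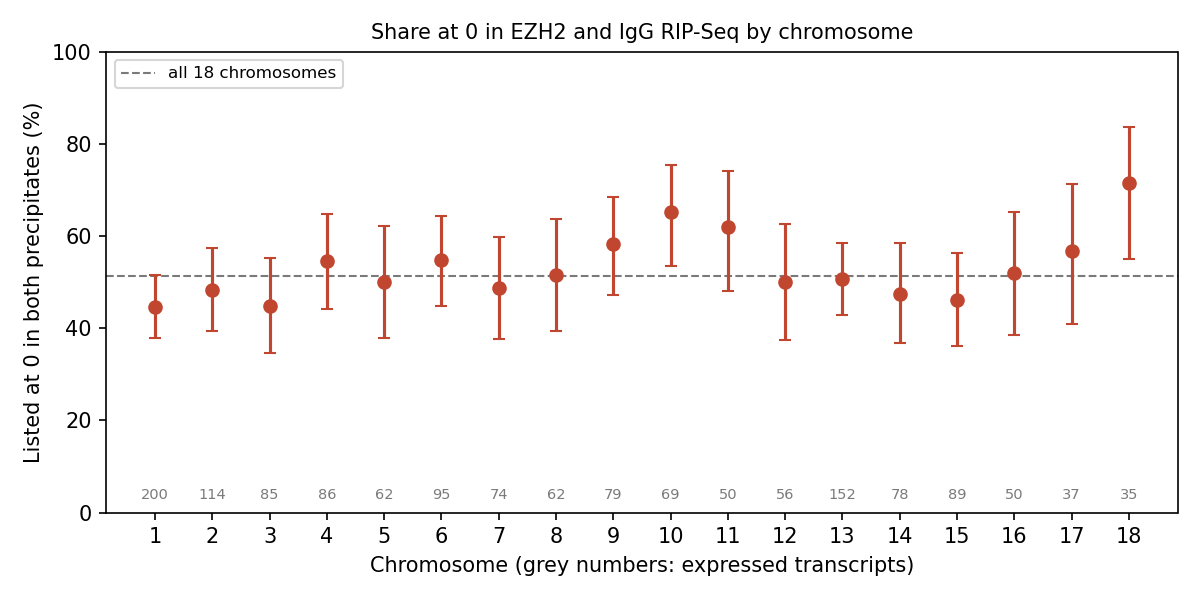
Share of expressed transcripts listed at 0 in both precipitates (percent, vertical axis) on each autosome (horizontal axis), with 95% Wilson intervals over transcripts, the number of expressed transcripts in grey and the share over all 18 chromosomes as a dashed line at 51.4%. The intervals of chromosomes 10 and 18 lie above the line and the other 16 cross it.

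Abundant members were not gathered on a few chromosomes. A member above 100 was found on 14 of the 18 chromosomes, the exceptions being 7, 8, 16 and 17. Chromosome 9 had 3 such members, led by TCONS_00067256, and no chromosome had more. The highest member reached 188.8 on chromosome 1 (TCONS_00006543), 198.8 on chromosome 6 (TCONS_00056729), 128.7 on chromosome 13 (TCONS_00019376), 155.8 on chromosome 14 (TCONS_00023948) and 101.6 on chromosome 15 (TCONS_00026561). On the 4 chromosomes without a member above 100, it was 80.6 on chromosome 16 (TCONS_00028604), 34.0 on chromosome 7 (TCONS_00060026), 9.42 on chromosome 8 (TCONS_00064222) and 8.06 on chromosome 17 (TCONS_00030864). The top member of a chromosome thus varied 109-fold, from TCONS_00030864 to TCONS_00036994. Chromosome 2, with 55 members, held 15.02% of the members' summed lincRNA_FPKM, most of it in TCONS_00036994, and chromosome 3, with 38 members, held 9.94%.

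Typical levels varied less between chromosomes. The median lincRNA_FPKM of members ran from 1.81 on chromosome 4 to 4.52 on chromosome 12, and that of the comparison group from 1.61 to 3.16. The members' median was the higher on 9 chromosomes and the lower on 9. No common direction was therefore seen across chromosomes, as over all transcripts.

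Members were unevenly placed along the order of the identifiers. On each autosome the transcripts on 2 rows formed separate stretches of consecutive identifiers, 3 on 16 chromosomes and 4 on chromosomes 6 and 15, a division seen only after the data were examined and made without use of FPKM values. The last is called the third stretch here, the one before it the second, and any earlier the first. The first stretch held 62 expressed transcripts and 0 members, which allows a share of up to 5.83% (upper Wilson limit). There, 200 of all 201 transcripts on 2 rows (99.5%) had an EZH2 value, and the median EZH2_FPKM of the expressed ones was 127.7. The second stretch held 274 members among 558 expressed transcripts, or 49.1% (45.0 to 53.2), and the third 483 among 853, or 56.6% (53.3 to 59.9). All members thus came from the second stretch (36.2%) and the third (63.8%). The share among expressed transcripts was higher in the third stretch than in the second on 15 of 18 chromosomes and lower on 3. At any level in total RNA, 0 in EZH2 was instead listed less often in the third stretch. There, 46.3% of all transcripts on 2 rows (2852 of 6154) had an EZH2 value, against 35.7% in the second (1389 of 3896). Of the expressed ones, 358 of 853 had an EZH2 value in the third and 274 of 558 in the second. The stretches also differed in total RNA, as 42.3% of all transcripts on 2 rows in the second stretch and 0.0162% (1 of 6154) in the third had a lincRNA_FPKM of 0. What the stretches stand for was not tested.

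Within the stretches, the medians of members and comparison transcripts stood in opposite order. In the second stretch the members' median lincRNA_FPKM was 2.05 (1.86 to 2.27) and that of the comparison group 2.71 (2.31 to 3.35), a log2 difference of -0.22. These 2 intervals did not overlap. In the third, it was 2.50 (2.28 to 2.81) for members and 2.24 (1.90 to 2.52) for the comparison group, a log2 difference of 0.084, with overlapping intervals. The shares above 10, given with the levels, likewise stood in opposite order. The comparison group also held the 62 transcripts of the first stretch, with a median lincRNA_FPKM of 3.13, and without them the log2 difference over the remaining identifiers was -0.027. For lincRNA_FPKM above 10 and up to 100, members were 38.5% of expressed transcripts in the second stretch (30 of 78; 28.4 to 49.6) and 65.9% in the third (81 of 123; 57.1 to 73.6). In the class up to 2 the shares were 55.6% in the second stretch and 54.3% in the third. They were 48.0% and 57.4% above 2 and up to 5, 42.4% and 49.5% above 5 and up to 10, and 43.5% and 66.7% above 100. The share was lower in the second stretch in each class above 2, and the intervals were apart only from 10 to 100.

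The transcript after a member was more often a member than the transcript after another. Among 312 pairs of expressed transcripts with consecutive identifiers, a member was followed by a member in 77 of 127 pairs, or 60.6% (51.9 to 68.7), and another transcript by a member in 67 of 185, or 36.2% (29.6 to 43.4). Without the first stretch, which held no member, the second value was 40.1% (67 of 167; 33.0 to 47.7). By stretch, the intervals overlapped in the second, with 55.6% (25 of 45; 41.2 to 69.1) after a member and 37.5% (27 of 72; 27.2 to 49.0) after another. In the third they did not, with 63.4% (52 of 82; 52.6 to 73.0) and 42.1% (40 of 95; 32.7 to 52.2). Consecutive identifiers may belong to pieces of 1 transcription unit, so that 757 members need not be 757 loci. Runs of at least 2 members held 141 of the 757, the longest being 3 runs of 4. One of these, TCONS_00010784 to TCONS_00010787 on chromosome 11, was singled out after its values were seen. Its lincRNA_FPKM ran from 3.81 to 107.4 with a median of 50.4, and all 4 transcripts were at 0 in both precipitates.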

How the data were processed

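The deposited FPKM values of 3 libraries (lincRNAseq, EZH2 RIP-Seq and IgG RIP-Seq, 1 each) were analysed. To make them, the authors trimmed adaptors, removed low-quality and short reads, used Tophat2 for alignment to Sus_scrofa 10.2, Cufflinks for assembly, Cuffcompare against the annotation and Cuffdiff for FPKM. TopHat2, Cufflinks and Cuffdiff are also named in the submitters' processing notes, and versions are not given in the sources used here. FPKM depends on an estimated transcript length and on the total of each library, so a short transcript can have a high value from few fragments, and a transcript with no fragment is listed at 0 at any length.

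Identical rows were counted once, giving 14580 transcripts from 26521 rows, of which 11941 transcripts were on 2 rows. Values were summarised by counts, medians, quartiles and log2(FPKM + 2). Shares have 95% Wilson intervals and medians 95% binomial order-statistic intervals, and both cover only counting error over transcripts. With 1 library per condition, and as transcripts are not replicates, p-values were not calculated. Relative depth was read from the most common ratio of IgG_FPKM to EZH2_FPKM. The code was tested on simulated data.

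The transcripts named are the 10 members of highest lincRNA_FPKM, the highest member of a chromosome, the 3 highest transcripts of the comparison group and of those with IgG alone, and the 2 on either side of the limit of 1; others are said to be chosen after their values were seen. The members and lists were chosen with earlier results of these data known. Alternatives were the lincRNA_FPKM minimum, the value taken as 0, the rows and chromosomes counted, the pseudocount and the comparison group. The stretches and runs of identifiers were added after the data were seen. Of 14580 identifiers, 0 matched the gene name tables in hand. The work was done in Python 3.11.15 with scipy 1.17.1, pandas 2.3.3 and numpy 2.4.6, and plots were drawn with matplotlib 3.10.9.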

Additional observations from a re-analysis of the deposited data

How the results depend on the processing

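Of 102 alternative values, 92 moved by no more than a tolerance, which was the 95% Wilson interval for a share, 1.5 times for a count and 0.105 for the log2 difference of medians, and 10 moved further. The count of 757 became 4238, 426 and 212 with lincRNA_FPKM above 0.1, 2 and 5, became 1366 with transcripts on 1 row included, and was 1514 when rows were counted, which follows from the number of transcripts or rows each setting admits. The share of members was between 49.1% and 56.6% under its alternatives, and was 56.6% in the third stretch alone. The log2 difference of medians, -0.047, ran from -0.22 to 0.28 over 11 alternatives, so that its sign was not stable. It moved to 0.28 with lincRNA_FPKM above 5, to -0.22 in the second stretch alone and to 0.084 in the third alone; the cause was not tested. By chromosome, 71 of 72 alternative shares stayed within the interval of their main value. The exception was chromosome 16, at 66.7% with lincRNA_FPKM above 2, and the cause was not tested. These 71 make up most of the 92, and their stability was partly built in. The intervals were wide, and each setting shared transcripts with the main count. On chromosome 18, leaving out the first stretch kept the same 35 expressed transcripts. Its fall from 71.4% to 59.7% with transcripts on 1 row included also stayed within the interval. The settings by stretch and by run of identifiers were chosen after seeing the data. No paired analysis was possible because there was 1 library of each kind and nothing was tested. Without lengths or fragment counts, a member at 0 in both precipitates cannot be told apart from one whose fragments were too few to be sampled.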

Other observations

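Outside the autosomal transcripts on 2 rows, the same pair of 0 values was also counted among transcripts with a lincRNA_FPKM above 1. On the X chromosome 14 of 40 transcripts on 2 rows were listed at 0 in both precipitates, or 35.0% (95% Wilson interval 22.1 to 50.5). On unplaced scaffolds it was 355 of 611, or 58.1% (54.2 to 62.0), and among autosomal transcripts on 1 row 609 of 1117, or 54.5% (51.6 to 57.4). Among autosomal transcripts on 2 rows the share was 51.4%, with an interval of 48.8 to 53.9. The intervals of the X chromosome and of the transcripts on 1 row overlapped this interval. That of the scaffolds lay just above it, and no difference was tested.

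Some members had exactly the same lincRNA_FPKM as another member. There were 12 such members sharing 6 values, 5 of which were below 2. The highest was 26.1, shared by TCONS_00006393 and TCONS_00006789, which both lie on chromosome 1 and were named after their values were seen. In the comparison group, 8 transcripts shared 4 values.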
